A study of Mus musculus with 10 samples.

Results

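The 10 genes described here belong to the bone morphogenetic protein (BMP) pathway and to the ID gene family in mouse embryonic stem cells (mESCs). They were chosen by symbol and comprise the ligand gene *Bmp4*, the receptor gene *Bmpr1a*, the signal transducer gene *Smad1*, the inhibitor genes *Smad6*, *Smad7* and *Bambi*, and the target genes *Id1*, *Id2*, *Id3* and *Id4*. All 10 symbols were found among the 34591 genes of the expression table, and all 10 passed the filter on low values in every comparison. BMP ligands bind paired type I and type II receptors at the cell surface. The type I receptor phosphorylates SMAD1 and its relatives, which enter the nucleus with SMAD4 and activate genes such as those of the ID family. ID proteins lack a DNA-binding domain and hold E proteins away from DNA, and in mESCs the BMP to ID route is known for restraining neural differentiation. *Smad6*, *Smad7* and *Bambi* are themselves induced by BMP or related signals and act as feedback inhibitors.

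The libraries came from wild-type (WT) cells of the male C57/BL6 Bruce-4 line and from clones of that line in which *Dnttip1* or *Elmsan1* had been disrupted with CRISPR/Cas9. Both genes encode scaffold proteins of the mitotic deacetylase complex (MiDAC), which contains a class I histone deacetylase. The 5 lines, each with 2 libraries, were WT, D2A7 and D1E6 with *Dnttip1* disrupted, and E2E8 and E2G7 with *Elmsan1* disrupted. Each clone grew from a single sorted cell, so a knockout is represented by 2 clones, and a difference between a single clone and WT cannot be told apart from a difference between cell lines. All lines were grown in 2iL, a serum-free medium with the GSK3 inhibitor CHIR 99021 at 3 µM, the MEK inhibitor PD 0325901 at 1 µM and the cytokine LIF at 1000 U/ml, and the medium as described contained no added BMP.

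Values are FPKM, counts of sequenced fragments scaled to gene length and library size, which can be compared between genes. Between 30182379 and 84291842 fragments lay on genes per library, with the fewest in the WT libraries. *Dnttip1* RNA was at 8.15 and 8.43 FPKM in WT, 4.57 and 4.56 in D2A7 and 2.59 and 2.63 in D1E6. *Elmsan1*, listed under its older symbol C130039O16Rik, was at 5.53 and 5.39 FPKM in WT and between 4.62 and 5.18 in the *Elmsan1* KO libraries, so RNA of both targeted genes remained and RNA level alone does not check the *Elmsan1* KO labels. All 8 pluripotency markers were detected, with a summed level of 2698 to 3493 FPKM over the libraries. *Dppa5a* made up the largest part of that sum, at 1497 to 2296 FPKM. *Sox2* was at 187 and 181 FPKM in WT and 132 to 148 in the clones, and *Nanog* at 314 and 327 in WT and 243 to 295 in the clones. *Klf4* also lay below both WT libraries in every clone, whereas *Dppa5a* and *Zfp42* lay above both. Of 7 fibroblast markers, 5 stayed under 0.1 FPKM in all libraries, and the summed level of the list reached at most 0.588 FPKM. *Nes*, a neuroectoderm marker, was at 3.99 and 4.23 FPKM in WT, 12.4 and 13 in D2A7, 8.61 and 8.67 in D1E6, 6.0 in both E2E8 libraries, and 8.74 and 9.23 in E2G7, whereas *Pax6* stayed under 0.1 FPKM throughout. *Sox1*, of the same list, was at 0.374 and 0.457 FPKM in WT, 0.801 and 0.866 in D2A7 and 0.282 to 0.325 in the other clones. *Krt8*, a trophectoderm marker, was at 11.5 and 11 FPKM in WT, 29.8 and 26.5 in D2A7 and 8.32 to 16.8 in the other clones. *Tfap2c*, of the same list, went the other way in D2A7. It was at 36.5 and 35.7 FPKM in WT, 23.1 and 23.3 in D2A7 and 26.4 to 35.3 in the other clones. The mean summed level of that list was 49.3 FPKM in WT, 53.7 in D2A7 and 46.2 to 47.6 in the other clones. The mesoderm marker *T* was at 0.639 and 0.524 FPKM in WT and 0.166 to 0.322 in the clones. *Kdr*, of the same list, did not follow it, at 0.124 and 0.127 FPKM in WT and 0.0761 to 0.216 in the clones. The mean summed level of the mesoderm list was 0.983 FPKM in WT and 0.535 to 0.602 in the clones. For primitive endoderm markers the mean sum was 1.12 FPKM in WT, 1.52 in D2A7 and 0.721 to 0.838 in the other clones. The part of cells expressing these markers in the results below was not tested.

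In WT cells the inhibitor *Smad7* was the most abundant of the 10 genes at a mean of 21.2 FPKM, followed by *Bmpr1a* at 18.8 and *Id4* at 17.7. *Id3* at 6.20 and *Id2* at 5.82 FPKM overlapped between the WT libraries, so their order is not set. *Smad1* at 4.64, *Bambi* at 2.76, *Smad6* at 1.07 and *Id1* at 0.508 FPKM came next, and *Bmp4* was lowest at 0.115 FPKM. WT cells thus carried the receptor, the transducer and *Id4* RNA at clear levels while the RNA of the ligand *Bmp4* was near the limit of detection, with 6 and 12 fragments in the WT libraries. In all 4 clones *Bmpr1a* had the highest mean of the 10, though it overlapped *Smad7* in D1E6, and *Bmp4* had the lowest. The order of the ID genes changed from line to line, with *Id2* and *Id4* overlapping in D2A7 and *Id4* and *Id3* overlapping in E2G7.

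**Figure D1:**
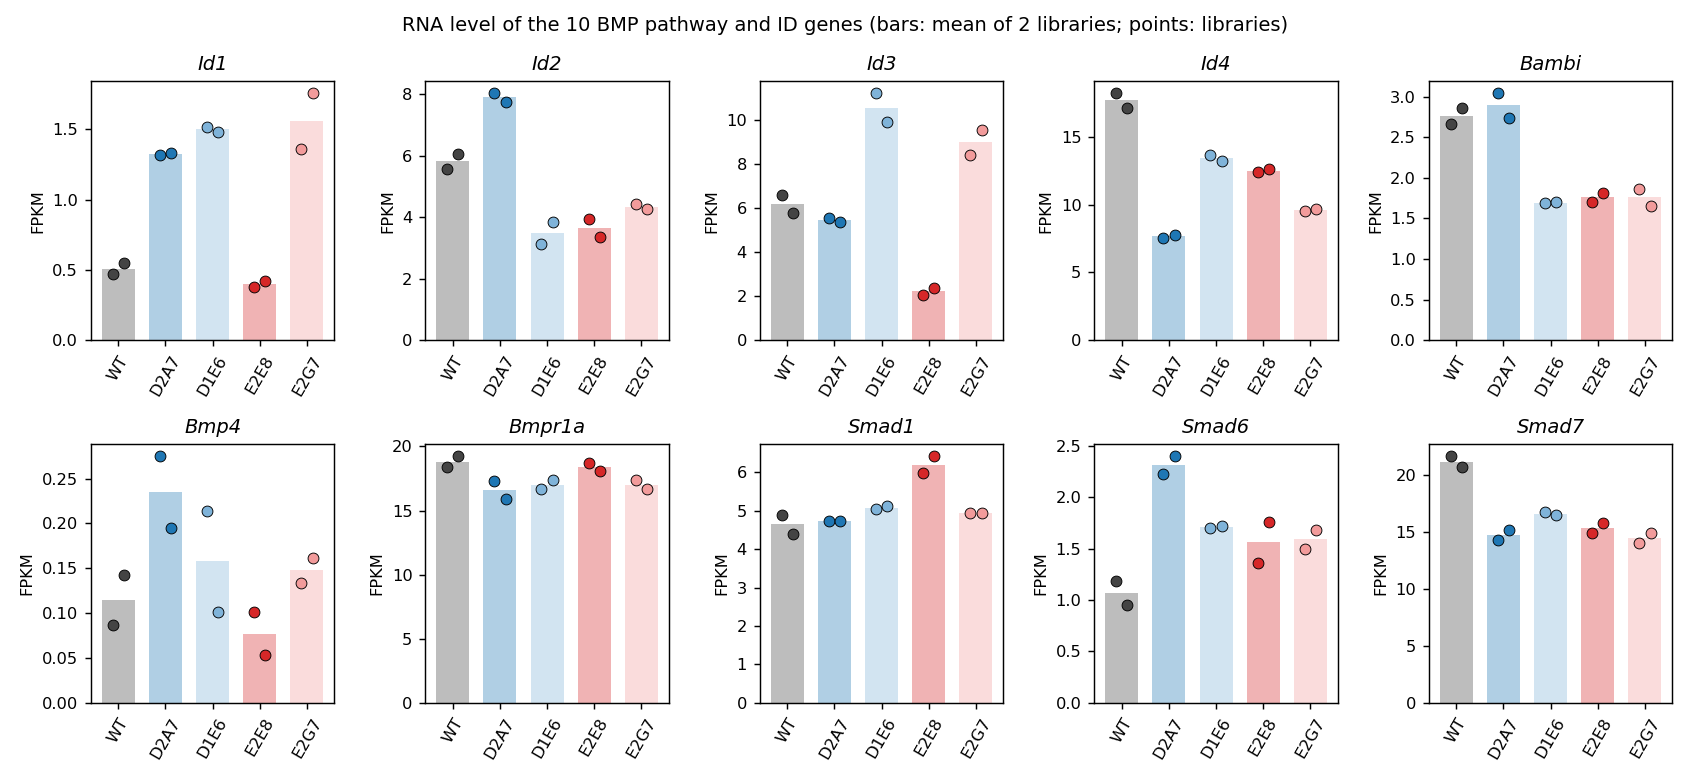
RNA level in FPKM (vertical axes, each starting at 0) of the 10 genes in WT, in D2A7 and D1E6 (*Dnttip1* KO) and in E2E8 and E2G7 (*Elmsan1* KO). Bars are means of 2 libraries and points are libraries. *Smad7* and *Id4* lie below WT in every clone and *Smad6* above it. *Id1*, *Id2*, *Id3*, *Id4* and *Bambi* differ between clones of the same knockout.

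Genes were compared with limma on log2(FPKM + 0.1), a scale that understates changes of low genes. A gene was called when it differed by at least 1.5-fold, a log2 difference of 0.585, with an unadjusted p under 0.01. Adjusted p-values are over all genes tested. Both knockouts were compared with the same 2 WT libraries, so their differences from WT are not independent of each other. A test of a knockout takes the spread between libraries of a genotype as its error, differences between its clones included. It counts libraries rather than clones as its units. A test of a single clone takes only the spread between libraries of a line. The labels do not say whether libraries of a line came from separate cultures, so the spread within a line may be technical. In such bulk libraries fewer cells that express a gene and less of its RNA per cell cannot be told apart.

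The ligand *Bmp4* (ENSMUSG00000021835, NCBIM37 chr14:47003195-47010344, minus strand) was at 0.0868 and 0.142 FPKM in WT. It was at 0.275 and 0.194 FPKM in D2A7, 0.214 and 0.101 in D1E6, 0.101 and 0.0536 in E2E8, and 0.134 and 0.161 in E2G7. Each knockout overlapped WT, although both D2A7 libraries lay above the WT libraries. No comparison called *Bmp4*, with a log2 difference of 0.43 ± 0.30 (SE) in *Dnttip1* KO and -0.04 ± 0.28 in *Elmsan1* KO. D2A7 on its own was at 0.63 ± 0.27 (limma adjusted p = 0.0902). The values rest on 6 to 38 fragments, and the antisense genes *Gm15217* and *Gm15222* overlap the locus, so *Bmp4* is uncertain at this depth.

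The type I receptor gene *Bmpr1a* (ENSMUSG00000021796, chr14:35223920-35316527, minus strand) encodes a receptor kinase that binds BMP4. It was at 18.4 and 19.2 FPKM in WT and between 15.9 and 17.4 in the *Dnttip1* KO libraries, which all lay below both WT libraries. The *Elmsan1* KO libraries were at 16.7 to 18.7 FPKM and overlapped WT. The log2 difference was -0.19 ± 0.055 (SE) in *Dnttip1* KO (95% interval -0.32 to -0.05, limma adjusted p = 0.0885) and -0.11 ± 0.059 in *Elmsan1* KO (-0.26 to 0.03, adjusted p = 0.276). Neither interval reached a 1.5-fold difference.

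*Smad1*, the transducer gene (ENSMUSG00000031681, chr8:81862294-81923417, minus strand), was at 4.89 and 4.40 FPKM in WT and 4.73 to 5.11 in the *Dnttip1* KO libraries. The E2E8 libraries, at 5.98 and 6.42 FPKM, were the highest, and E2G7 was at 4.94 and 4.95. The log2 difference from WT was 0.38 ± 0.069 (SE) in E2E8 (limma adjusted p = 0.00247) and at most 0.10 in the other clones, and none was called. *Smad1* lies on chromosome 8, whose 915 tested genes had a median log2 difference from WT of 0.33 to 0.38 in all 4 clones, while the median over all genes was at most 0.04. Relative to chromosome 8, *Smad1* was at -0.37 in D2A7, -0.25 in D1E6, -0.01 in E2E8 and -0.26 in E2G7, so the sign for *Smad1* depended on that reference.

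The inhibitor gene *Bambi* (ENSMUSG00000024232, chr18:3507955-3516402, plus strand) encodes a pseudoreceptor without a kinase domain that competes with type I receptors. It was at 2.67 and 2.86 FPKM in WT and 3.04 and 2.74 in D2A7. The other 3 clones were lower and close to each other, at 1.69 and 1.71 FPKM in D1E6, 1.71 and 1.81 in E2E8, and 1.87 and 1.65 in E2G7. *Bambi* fell 1.56-fold in *Elmsan1* KO, a log2 difference of -0.65 ± 0.10 (SE, limma adjusted p = 0.0158), and this call was lost when libraries of 1 clone were treated as correlated (adjusted p = 0.266 with the estimated correlation). In *Dnttip1* KO the log2 difference was -0.33 ± 0.27 (adjusted p = 0.482). D1E6 fell by 0.70 on the log2 scale whereas D2A7 was at 0.04. The direct comparison of D2A7 with D1E6 gave 0.74 ± 0.080 (adjusted p = 0.000215). The *Elmsan1* KO call was also lost with a pseudocount of 1 (-0.46). Over the alternatives, the differences smallest in size were -0.50 in D1E6, -0.47 in E2E8, -0.46 in E2G7 and 0.535 between D2A7 and D1E6, all under 1.5-fold. In E2G7 the call was lost under 3 alternatives, among them the fit without E2G7 replicate 2 (-0.56).

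*Smad7* (ENSMUSG00000025880, chr18:75527183-75555589, plus strand) encodes the inhibitory SMAD shared by the BMP and TGF-beta branches. It was at 21.7 and 20.7 FPKM in WT, 14.4 and 15.2 in D2A7, 16.8 and 16.5 in D1E6, 14.9 and 15.8 in E2E8, and 14.1 and 14.9 in E2G7. All 8 KO libraries lay below both WT libraries, with no overlap. The log2 difference was -0.46 ± 0.080 (SE) in *Dnttip1* KO (limma adjusted p = 0.0247) and -0.53 ± 0.067 in *Elmsan1* KO (adjusted p = 0.00878). Both differences were below 1.5-fold, at 1.37-fold and 1.44-fold, so *Smad7* was not called. Each clone on its own differed from WT by -0.38 to -0.56 with adjusted p-values of 0.000154 to 0.00121. Without WT replicate 2 the difference passed 1.5-fold in *Elmsan1* KO (-0.59), D2A7 (-0.60) and E2G7 (-0.63), and in E2G7 also without E2G7 replicate 2 (-0.60).

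*Smad6* (ENSMUSG00000036867, chr9:63800953-63869866, minus strand) encodes the other inhibitory SMAD, which blocks the type I receptor and binds SMAD1. It was at 1.18 and 0.954 FPKM in WT, 2.22 and 2.40 in D2A7, 1.70 and 1.72 in D1E6, 1.36 and 1.76 in E2E8, and 1.5 and 1.68 in E2G7. All 8 KO libraries lay above both WT libraries, so *Smad6* and *Smad7* lay on opposite sides of WT in every KO library. *Smad6* rose 1.76-fold in *Dnttip1* KO, a log2 difference of 0.82 ± 0.20 (SE, limma adjusted p = 0.0543), and in *Elmsan1* KO the log2 difference was 0.50 ± 0.16 (adjusted p = 0.109), which was not called. The fold change in *Dnttip1* KO was carried more by D2A7, with a log2 difference from WT of 1.03 ± 0.15, than by D1E6 with 0.61 ± 0.15. D2A7 lay above D1E6 by 0.42 (adjusted p = 0.0473), under 1.5-fold. The *Dnttip1* KO call was lost without either WT library (log2 difference 0.99 and 0.65) or either D2A7 library (0.77 and 0.73), and when libraries of 1 clone were treated as correlated (adjusted p = 0.328 with the estimated correlation). The D1E6 call was lost without WT replicate 2 (0.43) and without either D1E6 library (0.61 in both), and *Smad6* was called in E2E8 without WT replicate 1 (0.65) or E2E8 replicate 1 (0.64) and in E2G7 without WT replicate 1 (0.69).

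The 4 ID genes are short genes on separate chromosomes of NCBIM37. *Id1* (ENSMUSG00000042745) lies at chr2:152561987-152563146 on the plus strand, *Id2* (ENSMUSG00000020644) at chr12:25778666-25780957 on the minus strand, *Id3* (ENSMUSG00000007872) at chr4:135699412-135701670 on the plus strand and *Id4* (ENSMUSG00000021379) at chr13:48356796-48359405 on the plus strand. The 250 bases before the start of *Id2*, *Id3* and *Id4* are shown because these genes moved in different directions in the same clones. They are from RefSeq on GRCm38.p6, another build than that of the gene positions, at chr12:25096093-25096342 (minus strand), chr4:136143572-136143821 (plus strand) and chr13:48260866-48261115 (plus strand), and 7 of the 10 genes had an entry in the table. Capitals mark matches on either strand to GGCGCC, a GC-rich element known from BMP-responsive promoters, or to CAGAC, a core of the SMAD-binding element, and the 2 motifs do not overlap here.
Id2: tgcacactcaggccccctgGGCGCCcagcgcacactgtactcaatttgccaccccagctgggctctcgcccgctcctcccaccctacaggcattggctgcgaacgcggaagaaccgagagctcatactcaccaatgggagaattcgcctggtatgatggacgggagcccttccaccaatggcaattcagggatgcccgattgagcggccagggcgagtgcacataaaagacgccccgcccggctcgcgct
Id3: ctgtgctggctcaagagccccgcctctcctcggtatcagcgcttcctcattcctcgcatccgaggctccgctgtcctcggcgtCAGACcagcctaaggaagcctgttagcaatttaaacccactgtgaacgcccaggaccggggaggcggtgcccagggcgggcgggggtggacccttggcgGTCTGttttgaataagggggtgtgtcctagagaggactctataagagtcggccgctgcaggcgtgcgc
Id4: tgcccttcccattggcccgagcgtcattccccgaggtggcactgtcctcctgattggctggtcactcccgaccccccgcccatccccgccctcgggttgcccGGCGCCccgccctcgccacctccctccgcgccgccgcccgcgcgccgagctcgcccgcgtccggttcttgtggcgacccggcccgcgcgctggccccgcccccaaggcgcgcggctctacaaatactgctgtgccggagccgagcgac
The *Id2* stretch holds GGCGCC starting 231 bases before the start, and the *Id4* stretch holds it 148 bases before. The *Id3* stretch holds CAGAC or its reverse complement 167 and 68 bases before the start and no GGCGCC. Among the other genes with an entry, *Bmpr1a* held GGCGCC 198 bases before the start, and *Bmp4*, *Smad1* and *Smad6* held neither motif. Of 32851 promoters in the table, 9.59% held GGCGCC and 42.2% held CAGAC in the same window, so a match is a description of these letters and no more.

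*Id1* was low in WT, at 0.471 and 0.546 FPKM from 17 and 24 fragments, and E2E8 was as low at 0.375 and 0.424. The other 3 clones were far above, at 1.32 and 1.33 FPKM in D2A7, 1.52 and 1.48 in D1E6, and 1.36 and 1.75 in E2G7. *Id1* rose 2.45-fold in *Dnttip1* KO, a log2 difference of 1.29 ± 0.13 (SE, limma adjusted p = 0.0058), and every *Dnttip1* KO library lay above both WT libraries. The D2A7 and D1E6 clones did not differ beyond the spread between libraries, with a difference of -0.16 (95% interval -0.45 to 0.13, adjusted p = 0.353). In *Elmsan1* KO the pooled difference was 0.56 ± 0.61 (adjusted p = 0.595), and the clones lay on different sides of WT. E2G7 rose 2.68-fold over WT, with a log2 difference of 1.42 ± 0.13 (adjusted p = 0.000105), while E2E8 was at -0.31 ± 0.13 (adjusted p = 0.0741), and E2E8 was 3.32-fold below E2G7 (log2 difference -1.73 ± 0.13, adjusted p = 4.19e-05). High *Id1* RNA was therefore measured in both *Dnttip1* KO clones and in 1 of the 2 *Elmsan1* KO clones.

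*Id2* was at 5.57 and 6.06 FPKM in WT and 8.02 and 7.76 in D2A7, the only clone above WT. It was at 3.13 and 3.84 FPKM in D1E6, 3.94 and 3.37 in E2E8, and 4.42 and 4.27 in E2G7, all below both WT libraries. *Id2* fell 1.69-fold in D1E6 and 1.61-fold in E2E8, with log2 differences of -0.76 ± 0.10 and -0.69 ± 0.10 (SE, limma adjusted p = 0.000722 and 0.000819), and the E2E8 call was lost without E2E8 replicate 2 (-0.58). The E2G7 difference of -0.43 ± 0.10 (adjusted p = 0.0112) and the D2A7 difference of 0.41 ± 0.10 (adjusted p = 0.0104) stayed under 1.5-fold. In *Elmsan1* KO the difference was -0.56 ± 0.13 (adjusted p = 0.0413), just short of 1.5-fold, and it was called without E2G7 replicate 1 (-0.61) or replicate 2 (-0.59). D2A7 was 2.26-fold above D1E6 (log2 difference 1.17 ± 0.10, adjusted p = 6.67e-05), so the pooled value for *Dnttip1* KO, -0.17 ± 0.42 (adjusted p = 0.824), averages clones that lie on opposite sides of WT.

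*Id3* spanned the widest range of the 4 on the log2 scale. It was at 6.61 and 5.80 FPKM in WT and 5.55 and 5.37 in D2A7, higher at 11.2 and 9.93 in D1E6 and at 8.42 and 9.57 in E2G7, and lowest at 2.08 and 2.36 in E2E8. *Id3* rose 1.66-fold in D1E6 and fell 2.77-fold in E2E8, with log2 differences of 0.73 ± 0.11 and -1.47 ± 0.11 (SE, limma adjusted p = 0.0013 and 2.78e-05). E2G7 was at 0.51 ± 0.11 (adjusted p = 0.00744), under 1.5-fold, and was called without WT replicate 1 (0.64) or E2G7 replicate 1 (0.60). The clones of each knockout differed, by -0.93 ± 0.11 for D2A7 against D1E6 (adjusted p = 0.000333) and by -1.98 ± 0.11 for E2E8 against E2G7 (adjusted p = 1.46e-05), the latter 3.95-fold. Pooled by genotype, *Id3* was not called, at 0.27 ± 0.34 in *Dnttip1* KO (adjusted p = 0.651) and -0.48 ± 0.69 in *Elmsan1* KO (adjusted p = 0.691).

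*Id4*, the most abundant ID gene in WT, was the member of the family that lay below WT in every clone. It was at 18.2 and 17.2 FPKM in WT, 7.54 and 7.78 in D2A7, 13.7 and 13.2 in D1E6, 12.4 and 12.6 in E2E8, and 9.51 and 9.71 in E2G7. None of the 8 KO libraries overlapped WT. *Id4* fell 1.63-fold in *Elmsan1* KO, a log2 difference of -0.71 ± 0.14 (SE, limma adjusted p = 0.0283), and this call was lost without WT replicate 1 (-0.63, adjusted p = 0.215). In *Dnttip1* KO the difference was larger but more variable, at -0.82 ± 0.28 (adjusted p = 0.129, unadjusted p = 0.0269), and was not called. It was called with all 10 libraries in a single fit (-0.82, adjusted p = 7.86e-06), where the error holds only the spread between libraries of a line. D2A7 fell by 1.22 on the log2 scale and E2G7 by 0.89, whereas D1E6 at -0.42 and E2E8 at -0.52 stayed under 1.5-fold although their adjusted p-values were 0.00042 and 0.000102, and E2E8 was called without WT replicate 2 (-0.60). D2A7 lay below D1E6 by 0.79 ± 0.050 on the log2 scale (adjusted p = 1.6e-05). The antisense gene *A330033J07Rik* overlaps *Id4* but did not exceed 0.0233 FPKM.

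The summed RNA of the 4 ID genes was 30.9 and 29.6 FPKM in WT and 29.5 and 28.5 in D1E6. It was 22.4 and 22.2 FPKM in D2A7, 18.8 in both E2E8 libraries, and 23.7 and 25.3 in E2G7. Its make-up also differed between lines. *Id4* made up 58.5% of the sum in WT and 66.6% in E2E8, but 34.3% in D2A7, 46.4% in D1E6 and 39.2% in E2G7. *Id3* made up 20.5% in WT, 36.4% in D1E6, 36.7% in E2G7 and 11.8% in E2E8. *Id2* took 35.3% in D2A7 against 19.3% in WT. *Id1* took 1.69% in WT and 2.13% in E2E8, and between 5.17% and 6.33% in the other clones. D1E6 and WT thus had nearly the same summed level with a different composition, and E2E8 had the lowest sum with a composition nearest to WT for *Id1* and *Id2*. These sums are given as descriptions without a test.

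**Figure D2:**
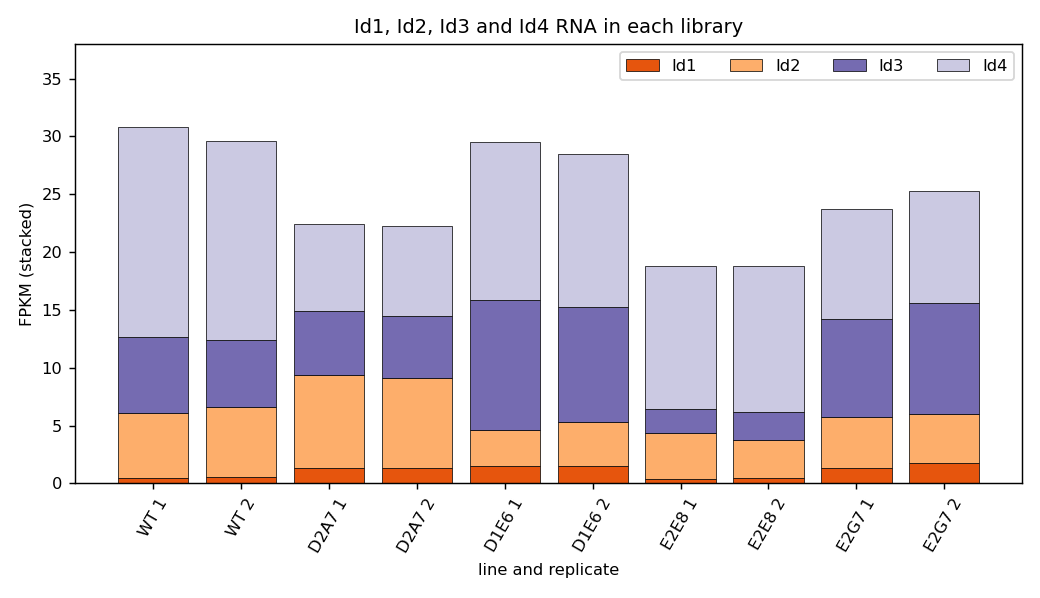
Stacked FPKM of *Id1*, *Id2*, *Id3* and *Id4* (vertical axis from 0) in each of the 10 libraries (horizontal axis). The sum is 30.9 and 29.6 FPKM in WT and 18.8 FPKM in both E2E8 libraries, and libraries of the same line are nearly alike in sum and composition.

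Counted over the 10 genes, 2 were called in *Dnttip1* KO, *Id1* and *Smad6*, both higher, and none lower, where 3.26% of the 17434 genes tested were called higher and 3.25% lower. In *Elmsan1* KO 2 were called lower, *Bambi* and *Id4*, and none higher, against 3.68% lower and 2.74% higher of 17212 genes. The median log2 difference of the 10 was -0.06 in *Dnttip1* KO and -0.30 in *Elmsan1* KO, beside 0.02 and 0.00 over all genes tested. No gene of the 10 was called in both knockouts. *Smad7* and *Id4* nonetheless lay below WT, and *Smad6* above it, in all libraries of both. The share of all genes that separated from the shared WT libraries in this way was not counted. Nothing particular to these genes is therefore read from it.

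Compared directly, *Dnttip1* KO and *Elmsan1* KO gave 0 calls among the 10 by limma, with 0 at an unadjusted p under 0.05, where 1.52% of 17588 genes were called in either direction. The largest differences were those of *Id3*, 0.75 (95% interval -0.46 to 1.95), and *Id1*, 0.73 (-0.25 to 1.72), and both intervals include 0. In a fit of all 10 libraries with a mean for each line, whose error is the spread within a line only, *Id1* and *Id3* were called. A call in 1 knockout and not in the other therefore does not show that the knockouts differ for that gene.

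Clone by clone the calls were more numerous. In D2A7 2 genes were called higher and 1 lower, where 10.8% and 5.49% of 17868 genes were called. In D1E6 3 were higher and 2 lower, against 5.04% and 5.94%. In E2E8 none was higher and 3 were lower, against 10.2% and 5.93%. In E2G7 1 was higher and 2 were lower, against 3.55% and 6.4%. Between clones of the same knockout, *Bambi* and *Id2* were higher and *Id3* and *Id4* lower in D2A7 than in D1E6, where 9.36% and 3.73% of all genes were called higher and lower. *Id1* and *Id3* were lower in E2E8 than in E2G7, and none was higher, against 2.95% lower and 9.55% higher over all genes. *Bmp4*, *Bmpr1a*, *Smad1* and *Smad7* were called in no clone.

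**Figure D3:**
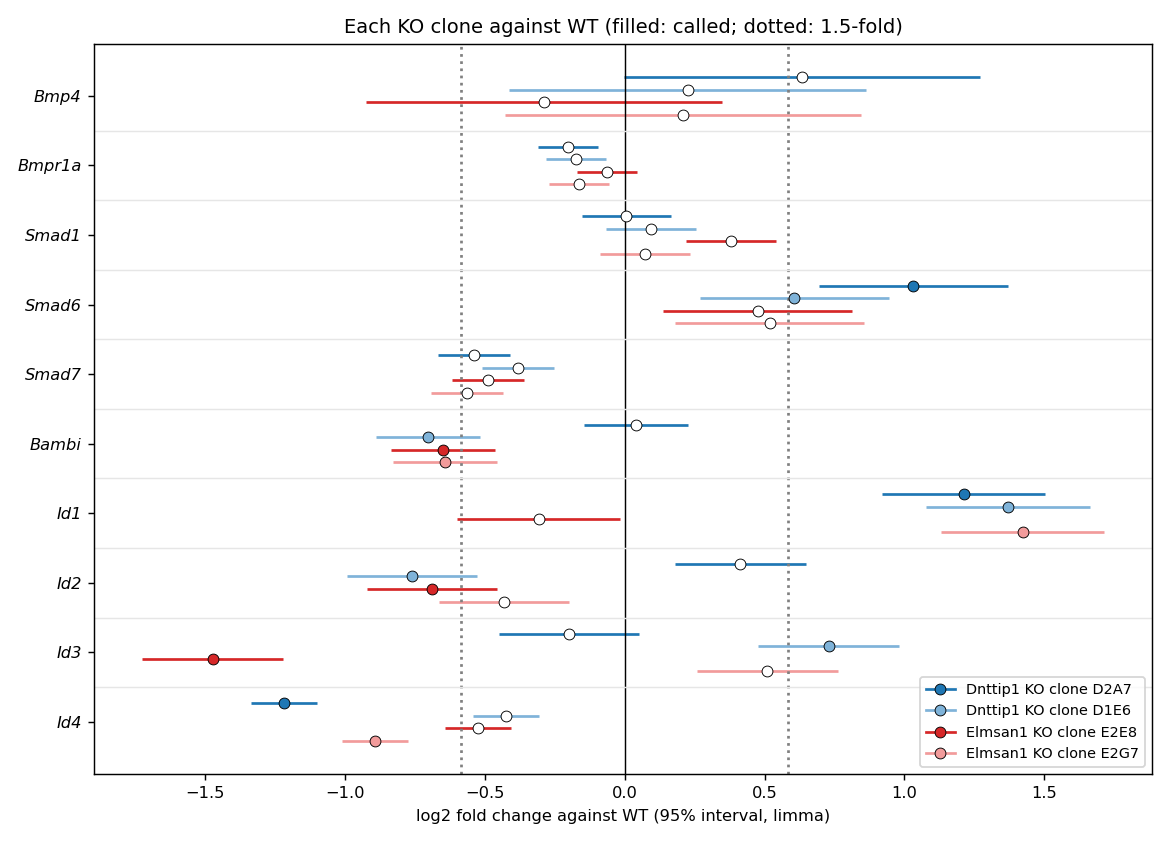
Log2 fold change from WT (horizontal axis) of the 10 genes in each KO clone, with the 95% interval of limma. Filled points were called, open points were not, and dotted lines mark 1.5-fold. *Smad7* and *Id4* lie left of 0 and *Smad6* right of 0 in all 4 clones, while *Id1* spans -0.31 to 1.42 and *Id3* spans -1.47 to 0.73.

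The rest of the pathway was read from a list of 62 further genes, of which 27 had a mean of at least 1 FPKM. In *Dnttip1* KO 1 of 37 tested was called higher, *Gata2*, and none lower, beside 3.26% higher and 3.25% lower of all genes tested. In *Elmsan1* KO 1 of 36 was called higher, *Gdf5*, and 3 lower, *Fst*, *Fstl1* and *Bmp2*, beside 2.74% higher and 3.68% lower of all genes. Counts of 0 or 1 among so few genes are near those shares, and nothing particular to the list is read from them. The medians of the list were 0.00 and 0.01 on the log2 scale. *Gdf5* and *Bmp2* are ligand genes with at most 0.139 and 0.195 FPKM and as few as 1 fragment in a library, and they are named here after their values were seen. *Gdf5* reached 0.1 FPKM only in the KO libraries of that comparison and *Bmp2* only in the WT libraries, so each passed the filter through the group where it was high and its call carries no information. None of the 7 receptor and co-receptor genes tested, none of the transducer genes (3 tested in *Dnttip1* KO and 2 in *Elmsan1* KO), none of the 6 intracellular regulators and none of the 3 E protein genes *Tcf3*, *Tcf4* and *Tcf12* was called in either knockout.

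*Fst* encodes follistatin, a secreted antagonist of activins and some BMPs. It was at 8.55 and 9.28 FPKM in WT and 6.71 and 6.19 in D2A7, but at 2.54 to 2.87 in the 6 libraries of the other 3 clones. It fell 3.32-fold in *Elmsan1* KO, a log2 difference of -1.73 ± 0.087 (SE, limma adjusted p = 0.00104), and in *Dnttip1* KO the difference was -1.09 ± 0.43 (adjusted p = 0.17). D2A7 lay above D1E6 by 1.22 (adjusted p = 1.06e-05), the same clones as for *Bambi*. *Fstl1*, a follistatin-like secreted glycoprotein gene, was at 8.13 and 8.68 FPKM in WT and fell 1.76-fold in *Elmsan1* KO, a log2 difference of -0.81 ± 0.11 (adjusted p = 0.0101). In *Dnttip1* KO the *Fstl1* difference was -0.56 ± 0.18 (limma adjusted p = 0.116), not called. Of its clones, D1E6 was called at -0.81 (adjusted p = 1.74e-05) and D2A7 was at -0.31, not called. *Gata2*, which encodes a transcription factor known as a BMP target, was at 2.61 and 2.52 FPKM in WT, 3.73 and 3.92 in D2A7, 5.77 and 5.19 in D1E6, 12.1 and 12.6 in E2E8, and 4.44 and 4.95 in E2G7. *Gata2* rose 1.73-fold in *Dnttip1* KO (log2 difference 0.79 ± 0.19, adjusted p = 0.0572), a call lost without either WT library (0.84 and 0.73) or D1E6 replicate 2 (0.73) and with correlated libraries of a clone (adjusted p = 0.23 with the estimated correlation). It was also lost with quantile normalization (adjusted p = 0.0808), the replicate block (0.12), voom on the recovered fragments (0.105) and a threshold of 0.05 on the adjusted p. It was at 1.51 ± 0.47 in *Elmsan1* KO (adjusted p = 0.0969), not called. E2E8, the clone with the lowest *Id1* and *Id3*, had the highest *Gata2*, 1.36 above E2G7 on the log2 scale (adjusted p = 1.54e-05), so *Gata2* did not order the *Elmsan1* KO clones as *Id1* and *Id3* did.

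**Figure D4:**
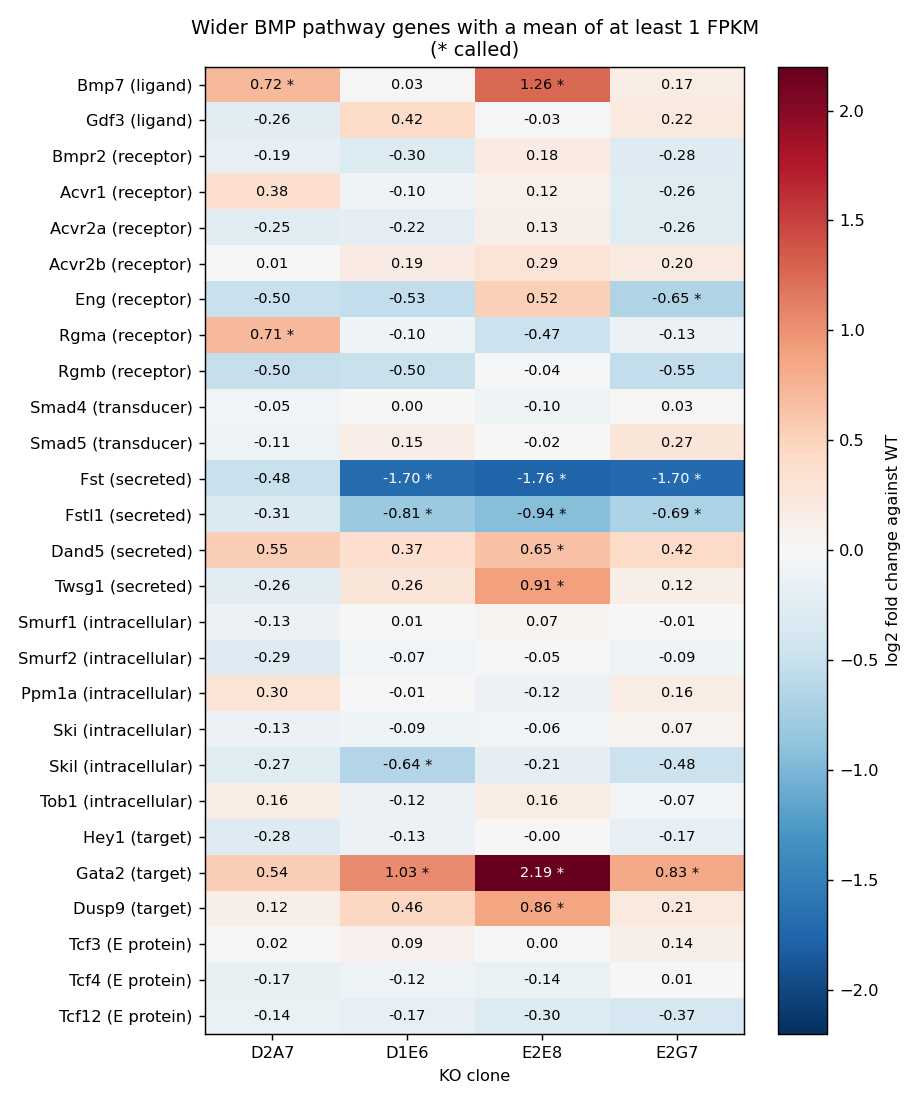
Log2 fold change from WT (colour and number) of the 27 further BMP pathway genes whose mean reached 1 FPKM (vertical axis, with their role) in the 4 KO clones (horizontal axis). An asterisk marks a called gene. *Fst* is at -1.70, -1.76 and -1.70 in D1E6, E2E8 and E2G7 and at -0.48 in D2A7, and *Gata2* reaches 2.19 in E2E8.

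Among 12214 genes whose mean reached 1 FPKM, *Crabp2* had the 4 clone differences most like those of *Id1*, with a root mean square difference of 0.159 on the log2 scale. *Crabp2*, which encodes a retinoic acid binding protein, was at 1.29 in D2A7, 1.37 in D1E6, 0.00 in E2E8 and 1.46 in E2G7. *Tgm1* followed with a root mean square difference of 0.325, and *AA986860* with 0.333. These genes were selected for the likeness, which spans 4 clones that share the WT libraries, and no test was made.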

How the data were processed

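The authors made stranded total RNA libraries of mESCs, mapped the paired reads to NCBIM37, obtained gene counts with HTSeq and deposited FPKM for 34591 genes in 10 libraries. For their own tests they used edgeR 3.16.5 and limma in R 3.3.1. Whether the counting used strand is not given in the sources used here. Positions and exon lengths are from GENCODE vM1, which matched 97.2% of the genes, although the methods name vM20. With these lengths, 98.1% to 98.4% of the values under 100 fragments were whole numbers of fragments within 0.02, which gave the depth stated. Clones are named by their code, because the KO numbers of D2A7 and D1E6 differ between the sample titles and the series design.

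From the deposited FPKM, each library was divided by its median ratio to the geometric mean over 11270 genes that reached 1 FPKM in every library (factors 0.965 to 1.01). Genes that reached 0.1 FPKM in 2 or more of the libraries compared were tested, across all genes at once, by limma 3.58.1 (R 4.3.3). It used a moderated two-sided test with a variance trend on log2(FPKM + 0.1) and Benjamini-Hochberg adjustment. Each knockout was fitted with WT alone (4 libraries against 2), and clones were compared in a fit of all 10 libraries with a mean for each line. The replicate numbers were not used to pair the libraries. The fits were tested on simulated data that held no differences between clones of a knockout, so that check does not cover such differences. Tables and figures used Python 3.11.15 and matplotlib 3.10.9.

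The 10 genes and the lists were chosen with earlier results of these data known. Besides the 10, the genes named are the targeted genes, genes of the pathway list called in both knockouts or, with a mean of at least 1 FPKM, up to 3 per role called in either, and the 3 genes most like *Id1*, the gene used because none of the 10 was called in both knockouts. The alternatives tried were other pseudocounts, filters, normalizations and fits, and each library left out in turn. The same alternatives for *Fst*, *Fstl1* and *Gata2* were chosen after seeing the data.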

Additional observations from a re-analysis of the deposited data

Results flagged for a closer look

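Several of the 10 genes differed between clones that carry the same disrupted gene, by the direct test of the difference in limma. In *Dnttip1* KO, D2A7 lay above D1E6 by 0.74 on the log2 scale for *Bambi* and by 1.17 for *Id2*. D2A7 lay below D1E6 for *Id3*, with a difference of -0.93, and for *Id4*, with -0.79. In *Elmsan1* KO, E2E8 lay below E2G7 for *Id1*, with a difference of -1.73, and for *Id3*, with -1.98. Each pair is 2 clones with 2 libraries each, and whether these differences come from the clones' descent from single cells was not tested.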

How the results depend on the processing

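Of 1540 values of the 10 genes under alternatives, 1473 kept their direction and their side of the threshold, 25 lost a call, 16 gained a call and 26 changed sign. The cause of these changes was not tested. Some alternatives, such as other filters or the threshold on the adjusted p, leave the log2 difference of a gene as it was. The count of unchanged values is therefore no measure of robustness. In *Dnttip1* KO 1 gene was called in place of 2, with *Smad6* lost, under a pseudocount of 1, a threshold of 0.05 on the adjusted p, voom on the recovered fragments, and the correlation within clones (0.704), and the range over left-out libraries was 1 to 2. In *Elmsan1* KO 1 was called in place of 2, with *Bambi* lost, under a pseudocount of 1 and the correlation within clones (0.768), and 1 to 3 with a library left out. In *Dnttip1* KO 3 were called in place of 2, with *Id4* gained, and between knockouts 2 in place of 0, with all 10 libraries in a single fit. With a pseudocount of 1, D1E6 had 3 calls in place of 5 and E2E8 1 in place of 3, and E2G7 had 3 to 5 with a library left out. The *Id1* calls in *Dnttip1* KO, D2A7, D1E6 and E2G7 held in all alternatives. With the correlation within clones the call in *Dnttip1* KO rests on the unadjusted p, as the limma adjusted p was 0.0812.

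Deviations of same-numbered libraries from their line mean correlated at -0.193 to 0.335 between lines. The highest value was that of D2A7 with E2E8, and WT was at -0.181 with D2A7 and -0.193 with E2E8. The main fits did not pair libraries by replicate number, and whether libraries of different lines share a batch was not tested. With the replicate block 1 gene was called in *Dnttip1* KO in place of 2, and the counts of the other comparisons were unchanged.

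The values that changed sign are these, on the log2 scale. Relative to chromosome 8, *Smad1* was at -0.32 in *Dnttip1* KO, -0.13 in *Elmsan1* KO, -0.37 in D2A7, -0.25 in D1E6, -0.0070 in E2E8 and -0.26 in E2G7. With a library left out it ranged from -0.055 to 0.16 in *Dnttip1* KO, -0.10 to 0.11 in D2A7, -0.011 to 0.20 in D1E6 and -0.034 to 0.18 in E2G7, each lowest without WT replicate 2. With quantile normalization, *Smad1* was at -0.056 and *Bambi* at -0.040 in D2A7, and *Bmp4* at 0.0072 in *Elmsan1* KO. *Bambi* between E2E8 and E2G7 was at 0.0028 with FPKM as deposited. Other ranges with a library left out were -0.38 to 0.068 for *Id2* in *Dnttip1* KO, -0.21 to 0.13 for *Bmp4* in *Elmsan1* KO and -0.10 to 0.55 in D1E6, -0.25 to 0.027 for *Id4* between the knockouts, -0.030 to 0.12 for *Bambi* in D2A7 and -0.091 to 0.077 between E2E8 and E2G7, -0.089 to 0.036 for *Bmpr1a* between D2A7 and D1E6, and -0.21 to 0.13 for *Smad6* and -0.14 to 0.025 for *Fst* between E2E8 and E2G7. Depth limits *Bmp4*, with 6 to 38 fragments, and *Id1*, with 17 to 176.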

Other observations

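Some genes of the wider pathway list were called in single clones, and they are named here after their values were seen. *Bmp7*, a BMP ligand gene with a mean of 2.35 FPKM, rose in E2E8 (log2 difference 1.26) and D2A7 (0.72) and was at 0.03 in D1E6 and 0.17 in E2G7. E2E8 had higher *Twsg1* (0.91) and *Chrd* (1.20), which encode secreted proteins that bind BMP ligands, but lower *Fst* (-1.76) and *Fstl1* (-0.94). *Dusp9*, listed among the BMP targets and encoding an ERK phosphatase, was also higher (0.86). Of 39 genes of the list tested in E2E8, 6 were called higher and 4 lower, beside 10.2% and 5.93% of all genes. A link of these genes to the ID genes was not tested. *Eng*, a co-receptor gene, fell in E2G7 (-0.65), and was at -0.50 in D2A7, -0.53 in D1E6 and 0.52 in E2E8. Each of these calls compares a single clone with WT.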
